A study of Mus musculus with 18 samples.

Results

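The 10 genes described here encode the machinery that shows peptides to T cells, and they were taken from the table of 55487 genes by symbol. The 6 class I genes were B2m, H2-K1, H2-D1, Tap1, Psmb8 and Psmb9, and the 4 class II genes were H2-Aa, H2-Ab1, H2-Eb1 and Cd74. They were measured by mRNA sequencing of the frontal cortex of 18 mice aged 9 to 10 months, perfused with PBS, in 3 genotypes of 6 mice each with 3 females and 3 males per genotype. APP/PS1 mice are of the transgenic line 85Dbo and deposit amyloid. APP/PS1/FTnKO mice carry the same transgenes and lack the β-subunit of farnesyltransferase (FT, gene Fntb) in forebrain neurons, where CamKIIα-driven Cre recombines the floxed alleles after birth. By the study's breeding scheme the APP/PS1 and WT mice were Cre-negative littermates homozygous for the floxed alleles, so that every genotype shared those alleles, whereas the deposited record describes the WT mice as C57BL/6J. The comparisons ask how antigen presentation genes differ in the amyloid model and whether neuronal FT loss moves them.

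MHC class I molecules consist of a heavy chain (H2-K1 and H2-D1 in the mouse) held together by the light chain β2-microglobulin (B2m), and they present peptides cut in the cytosol. Psmb8 and Psmb9 are catalytic subunits of the immunoproteasome, an interferon-inducible form of the proteasome, and Tap1 is a subunit of the pump that moves the peptides into the endoplasmic reticulum. MHC class II molecules pair an α with a β chain (H2-Aa with H2-Ab1, and H2-Ea with H2-Eb1), travel with the invariant chain Cd74, and present peptides from endosomes. In the brain the main cells that can carry class II are microglia and the macrophages of its borders, while class I is found more widely. The factor NLRC5 drives class I promoters and CIITA drives those of class II, both through a conserved arrangement of short sequence boxes.

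The bases upstream of the members were searched for letters of such boxes, and 5 promoters are shown because they include those of the class I heavy and light chains and of class II chains with a RefSeq entry. Each line gives the 200 bases that end just before a RefSeq transcription start in build GRCm38.p6, read 5′ to 3′ on the gene's own strand. The start need not be the one in the annotation used for counting. H2-K1 has a second RefSeq start, whose window is not shown. That window holds the same matches and also ATTGG on the opposite strand, at bases -6 to -2 from that start. Capitals mark any match, on either strand, to ATTGG (Y box), TGACG (part of a cAMP response element), AGCAAC (core of the X1 box), GAAA and GAAA parted by any 2 bases (interferon-stimulated response element) or GGG and TTCCC parted by any 2 bases (κB site), letters that were chosen with these sequences in view. The windows lie at chr2:122147487-122147686 (plus strand) for B2m, chr17:34000348-34000547 (minus strand) for H2-K1, chr17:35262894-35263093 (plus strand) for H2-D1, chr17:34287824-34288023 (minus strand) for H2-Aa and chr17:34305667-34305866 (plus strand) for H2-Eb1.
B2m: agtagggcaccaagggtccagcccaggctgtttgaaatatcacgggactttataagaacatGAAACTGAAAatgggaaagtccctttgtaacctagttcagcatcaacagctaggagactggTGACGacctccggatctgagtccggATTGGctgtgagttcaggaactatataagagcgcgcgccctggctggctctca
H2-K1: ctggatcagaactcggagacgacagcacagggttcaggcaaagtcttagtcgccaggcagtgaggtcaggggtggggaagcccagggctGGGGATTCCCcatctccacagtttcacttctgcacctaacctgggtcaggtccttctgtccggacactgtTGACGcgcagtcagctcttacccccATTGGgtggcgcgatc
H2-D1: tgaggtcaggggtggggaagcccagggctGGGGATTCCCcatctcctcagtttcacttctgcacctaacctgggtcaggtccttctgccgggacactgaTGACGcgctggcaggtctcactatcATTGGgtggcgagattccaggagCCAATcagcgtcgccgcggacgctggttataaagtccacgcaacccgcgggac
H2-Aa: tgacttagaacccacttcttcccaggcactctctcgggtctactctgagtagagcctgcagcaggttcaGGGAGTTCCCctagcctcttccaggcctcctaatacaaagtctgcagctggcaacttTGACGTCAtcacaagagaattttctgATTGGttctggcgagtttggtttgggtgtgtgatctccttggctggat
H2-Eb1: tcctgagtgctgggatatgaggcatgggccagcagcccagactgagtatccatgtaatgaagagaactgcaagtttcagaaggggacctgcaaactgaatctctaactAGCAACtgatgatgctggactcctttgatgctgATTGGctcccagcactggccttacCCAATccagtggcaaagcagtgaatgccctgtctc

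The B2m, H2-K1 and H2-D1 windows each held TGACG followed by ATTGG on the same strand with 25 bases from the first base of the former to the first base of the latter, and in H2-Aa the spacing was 26 bases. The other members searched lacked this pair on one strand. H2-Eb1 had no TGACG, Tap1 had no ATTGG, Psmb9 had both on opposite strands, and Psmb8 had no match to any of the letters. Of all 32851 promoter windows ATTGG was in 29.35% and TGACG in 15.66%, and the pair was 25 bases apart in 0.082% and 26 bases apart in 0.061%. The letters and the spacing were read from these members, which are among the windows counted, so that these shares describe the pattern and do not test it. H2-Eb1 held AGCAAC, present in 10.15% of windows, at 92 to 87 bases before its start, and ATTGG on both strands. B2m was the only member searched whose window matched the interferon-stimulated response element letters as written, which 2.27% of windows held. H2-K1, H2-D1 and H2-Aa held the κB letters, present in 1.25% of windows. A run of 46 bases was identical in H2-K1 (starting at base -140) and H2-D1 (starting at base -200) and covers that κB match. Of the other members with an entry, Tap1 and Psmb9 are read in opposite directions from overlapping windows. A match is a description of the letters and does not show that a factor binds. Variants of the letters were not searched, so the lack of a match does not show that a window lacks such an element.

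By the GENCODE M21 annotation of GRCm38, 8 of the 10 genes lie in the MHC region of chromosome 17, from H2-K1 at chr17:33996017-34000347 through Psmb9, Tap1, Psmb8, H2-Ab1, H2-Aa and H2-Eb1 to H2-D1 at chr17:35262730-35267499. B2m lies at chr2:122147686-122153083 and Cd74 on chromosome 18. Counts are per gene over exons, untranslated parts included. Tap1 and Psmb9 share 212 exon bases on opposite strands and Psmb8 shares 498 with the antisense gene Gm20496, and the sources used here do not say whether strand was used in counting. Of 150-base stretches of the H2-D1 transcripts, 1.35% occur also in H2-Q1, a class I relative nearby. For H2-K1, B2m and the 4 class II members no such stretch occurred in another gene.

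Total counts per library ran from 15925432 to 21030935. One WT female, mouse 19622, stood apart before any result was read. Its counts differed from those of the other WT mice by a chi-square per gene of 173 to 214, against 6.74 to 16.8 among the other 5, and its markers of the choroid plexus summed to 1372 counts per 1000000 reads (CPM). Other marker sums lay apart as well. Neuronal markers were at 4278 CPM against 7734 to 9889 in the other 5, and oligodendrocyte markers at 10760 against 3735 to 5671. Astrocyte markers were at 3601 against 1765 to 1908, and microglial markers at 222 against 384 to 448. The authors left out a WT sample as well. Mouse 19622 was held apart, and 5 WT, 6 APP/PS1 and 6 APP/PS1/FTnKO mice entered the tests. Levels below are CPM after scaling by TMM factors, and those of mouse 19622 are on the scale of all 18 libraries. Fold changes and adjusted p-values (FDR) come from edgeR's quasi-likelihood test across 17414 genes with sex as a covariate, and a gene was called at an FDR below 0.05. Fntb, the targeted gene, stood at 14.1, 16.9, 16.8, 32.2 and 30.8 CPM in the 5 WT mice, from 14.2 to 32.1 (median 15.8) in APP/PS1 and from 7.84 to 14.7 (median 12.6) in APP/PS1/FTnKO. APP/PS1 mice 19553 and 19554 stood at 28.7 and 32.1 CPM and the rest of that group at 17.1 or less. Neuronal loss of FT went with a log2 fold change of -0.77 (SE 0.26) against APP/PS1, but the lowest APP/PS1 mice overlapped and the edgeR FDR was 0.251. Reads from outside the deleted exons and from cells without Cre still count toward this gene. Prnp, whose promoter drives the transgenes and whose sequence they carry in part, lay between 658 and 768 CPM in WT mice, between 1983 and 2333 in the amyloid model and between 1841 and 2632 with the knockout, in keeping with the labels.

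**Figure D1:**
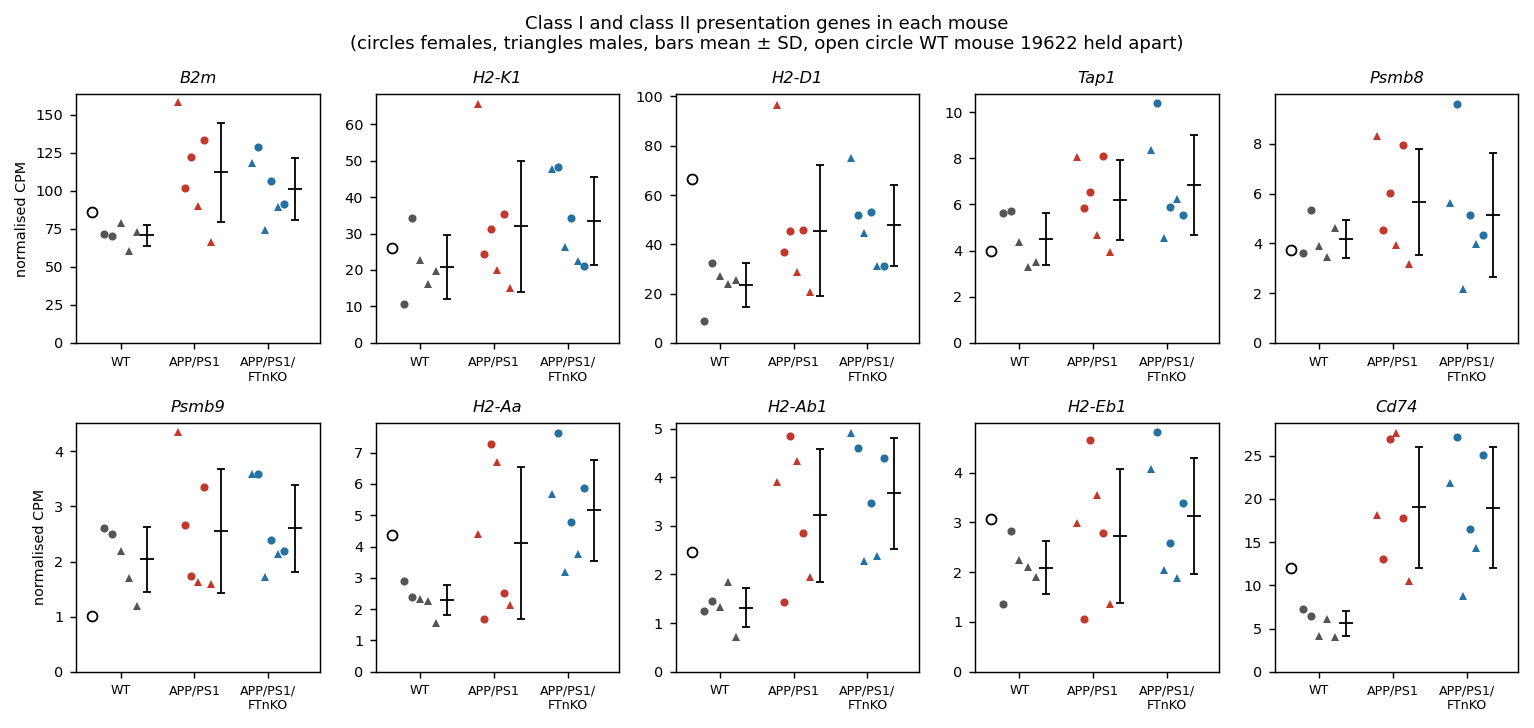
Normalised CPM (vertical axis, each panel with its own scale from 0) of the 10 genes in each mouse, by genotype. Circles are females and triangles males, the bar at the right of each group is the mean ± SD, and the open circle is WT mouse 19622, held apart. All 6 APP/PS1 and all 6 APP/PS1/FTnKO mice lie above the 5 WT mice for Cd74, while the class I panels overlap.

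In the amyloid model Cd74 was 3.36-fold higher than in WT and was the only member called, although all 10 members had fitted fold changes above 1. Of all genes 49.41% did. The members of each class varied together from mouse to mouse, so their directions are not independent. The invariant chain stood at 7.22, 6.50, 4.14, 6.15 and 4.03 CPM in the WT mice, 5.61 ± 1.44 on average (SD, n = 5). In APP/PS1 it ran from 10.5 to 27.6 CPM with a median of 17.97, so that every APP/PS1 mouse lay above every WT mouse of the 5. The log2 fold change was 1.75 (SE 0.28, edgeR FDR 0.00200), which placed Cd74 63rd by p among the 17414 genes. Mouse 19622, at 12.03 CPM, would lie inside the APP/PS1 range, and with all 18 mice, where 1.20% of genes were called, Cd74 still was. Across all genes 1.50% were called in this comparison, 1.71% had every APP/PS1 mouse above every WT mouse, and in each case 1 of 10 members did. DESeq2 called 3 members beside 2.69% of all genes, edgeR with no filter on low counts 4 beside 1.36%, and edgeR with no sex term 2 beside 1.64%, with B2m and H2-Ab1 the added genes under DESeq2.

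The 3 class II chains were less uniform. H2-Ab1, the β chain of H2-A, stood at 1.24, 1.44, 1.34, 1.85 and 0.724 CPM in WT and from 1.43 to 4.85 (median 3.38) in APP/PS1. Of the APP/PS1 mice 19553 at 1.43 lay among the WT values, and 19744 at 1.94 lay just above the highest of them. The log2 fold change was 1.28 (SE 0.33, edgeR FDR 0.0606), on the far side of the threshold, and WT counts were between 14 and 37 reads. H2-Aa, the α chain of the same dimer, stood at 2.90, 2.39, 2.32, 2.25 and 1.55 CPM in WT and from 1.68 to 7.27 (median 3.46) in APP/PS1. The 3 lowest of the 6 APP/PS1 mice lay inside the WT range and the other 3 above it (log2 fold change 0.85, SE 0.35, edgeR FDR 0.281). H2-Eb1, the β chain of H2-E, stood at 1.36, 2.83, 2.26, 2.099 and 1.91 CPM in WT and from 1.06 to 4.65 (median 2.89) in APP/PS1, and the groups overlapped (0.37, SE 0.34, edgeR FDR 0.663). With a mouse left out its log2 fold change ran from 0.17 to 0.53.

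Of the class I members, B2m was the nearest to the threshold. It stood at 71.4, 70.3, 79.1, 60.2 and 72.7 CPM in WT and from 66.3 to 159 (median 112) in APP/PS1, where 5 of 6 mice lay above the highest WT value and mouse 19744 lay inside the WT range. The log2 fold change was 0.65 (SE 0.17, edgeR FDR 0.0808). The heavy chain H2-D1 stood at 8.87, 32.6, 27.3, 23.9 and 25.5 CPM in WT and from 20.6 to 96.5 (median 41.1) in APP/PS1 (0.97, SE 0.36, edgeR FDR 0.229). Mouse 16975 was the highest by a wide margin and WT mouse 18944 the lowest. H2-K1, the other heavy chain, stood at 10.8, 34.2, 22.9, 16.2 and 19.7 CPM in WT and from 15.1 to 65.4 (median 27.9) in APP/PS1 (0.62, SE 0.35, edgeR FDR 0.443), with mouse 16975 again the highest and 18944 the lowest. The heavy chain values rested in part on mouse 16975, without which H2-D1 was at 0.55 and H2-K1 at 0.19. With mouse 19622 included, H2-D1 was at 0.57.

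The processing genes had the smaller differences of the class I group. Tap1 stood at 5.62, 5.72, 4.39, 3.30 and 3.52 CPM in WT and from 3.94 to 8.12 in APP/PS1 (log2 fold change 0.44, SE 0.21, edgeR FDR 0.370). Psmb8 ran from 3.45 to 5.33 CPM in WT and from 3.17 to 8.32 in APP/PS1 (0.39, SE 0.29, edgeR FDR 0.569). Psmb9 ran from 1.19 to 2.603 CPM in WT and from 1.59 to 4.35 in APP/PS1 (0.32, SE 0.29, edgeR FDR 0.660). For these 3 genes the genotypes overlapped. Without mouse 16975 the log2 fold changes were 0.28 for Tap1, 0.14 for Psmb8 and 0.021 for Psmb9. The median log2 fold change was 0.53 over the 6 class I members and 1.07 over the 4 class II members, against -0.0023 over all genes tested. At an unadjusted p under 0.05, 5 of the 10 members passed (B2m, H2-D1, H2-Aa, H2-Ab1 and Cd74), against 14.0% of all genes.

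**Figure D2:**
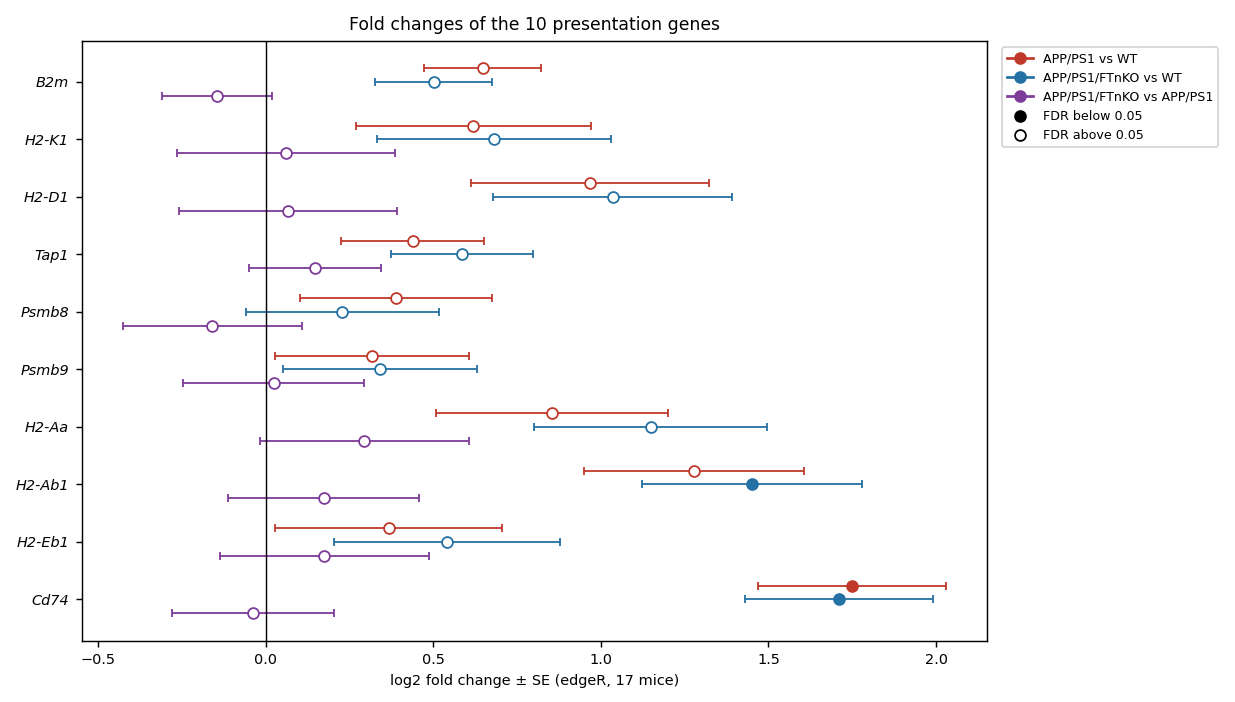
Log2 fold change (horizontal axis) with its SE for the 10 genes in the 3 comparisons, from the edgeR fit to 17 mice. Filled points passed an FDR of 0.05, which Cd74 did against WT in both transgenic genotypes and H2-Ab1 in APP/PS1/FTnKO, and the points for APP/PS1/FTnKO against APP/PS1 lie between -0.16 and 0.29.

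Loss of FT in neurons left no member called. Against APP/PS1, the log2 fold changes of the 10 genes in APP/PS1/FTnKO ran from -0.16 (Psmb8, SE 0.27) to 0.29 (H2-Aa, SE 0.31), with 7 above 0 and a median of 0.064. Of all genes 49.48% lay above 0. In this edgeR fit 0 of 10 passed either the FDR or an unadjusted p of 0.05, and DESeq2 also called 0, where DESeq2 called 1.77% of all genes, edgeR called 0.327% and found 11.5% at an unadjusted p under 0.05. Cd74 ran from 8.78 to 27.2 CPM (median 19.2) in APP/PS1/FTnKO, and its log2 difference from APP/PS1 was -0.04 (SE 0.24, edgeR FDR 0.972). B2m ran from 74.1 to 129 CPM (median 99.1), with a log2 difference of -0.15 (SE 0.16, edgeR FDR 0.793). In both genes the 2 transgenic genotypes overlapped. The standard errors, from 0.16 for B2m to 0.33 for H2-D1 and H2-K1, leave room for modest differences in either direction.

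Set against the same WT mice, APP/PS1/FTnKO mice had 2 called members, both of class II, where 3.87% of all genes were called. DESeq2 called 4 members beside 8.41% of all genes, edgeR with no filter 5 beside 2.93%, and edgeR on the WT and APP/PS1/FTnKO mice alone 4 beside 5.05%. Cd74 was 3.27-fold higher (log2 fold change 1.71, SE 0.28, edgeR FDR 0.00348), and H2-Ab1 was 2.73-fold higher (1.45, SE 0.33, edgeR FDR 0.0217). H2-Ab1 ran from 2.28 to 4.91 CPM (median 3.93) and H2-Aa from 3.19 to 7.64 (median 5.23), so that for both, as for Cd74, every APP/PS1/FTnKO mouse lay above the 5 WT mice, a separation that 2.75% of all genes had. H2-Aa nonetheless missed the threshold (1.15, SE 0.35, edgeR FDR 0.0695). The FDR of H2-Ab1 lay near the threshold. The call was lost when mouse 19622 was included (log2 fold change 1.27, edgeR FDR 0.0543, 1.51% of all genes called) and without WT mouse 18944, 19053 or 19721 or APP/PS1/FTnKO mouse 16974, with log2 fold changes from 1.30 to 1.63 over all left-out mice.

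H2-Eb1 was not called. It ran from 1.89 to 4.81 CPM in APP/PS1/FTnKO and overlapped with WT (log2 fold change 0.54, SE 0.34, edgeR FDR 0.362). The class I members had a median log2 fold change of 0.54 against WT, and none of the 6 was called. H2-D1 ran from 31.0 to 74.9 CPM (median 48.3) and was 1.04 higher on the log2 scale (SE 0.36, edgeR FDR 0.103), B2m was 0.50 higher (SE 0.17, edgeR FDR 0.106), and Tap1 0.59 higher (SE 0.21, edgeR FDR 0.119). With mouse 19622 included, H2-D1 was 0.64 higher (edgeR FDR 0.404). H2-K1 (0.68), Psmb9 (0.34) and Psmb8 (0.23) had FDRs of 0.265, 0.520 and 0.683 in edgeR. With a mouse left out, H2-K1 ran from 0.50 to 0.99, Psmb9 from 0.18 to 0.425 and Psmb8 from 0.020 to 0.39. At an unadjusted p under 0.05, 6 of the 10 members passed, against 22.1% of all genes. Both comparisons with WT used the same 5 WT mice, so that a low or high WT value enters both.

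In a fit with a sex by genotype term, no member was called for a difference between males and females in its genotype effect. In that edgeR fit 0 of the 17414 genes tested were called in any comparison. An unadjusted p under 0.05 was found for 705 genes in APP/PS1 against WT, 578 in APP/PS1/FTnKO against APP/PS1 and 312 in APP/PS1/FTnKO against WT. For Cd74 in APP/PS1 against WT the log2 fold change was 1.496 in females and 1.97 in males (unadjusted p = 0.411 for the difference in edgeR). The WT females numbered 2 in this fit.

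Per kilobase of exon, the levels of the members differed widely. In WT mice B2m stood at 82.3 ± 7.89 CPM per kb (SD, n = 5), far above H2-D1 at 9.17 ± 3.44 and H2-K1 at 7.06 ± 2.98, which did not differ beyond their spread. Cd74 followed at 3.34 ± 0.858. Psmb8 (1.24 ± 0.231), H2-Eb1 (1.08 ± 0.275) and Tap1 (0.823 ± 0.208) came next with SD ranges that overlapped between neighbours, and H2-Aa (0.601), Psmb9 (0.557) and H2-Ab1 (0.514) were the lowest and overlapped. In both transgenic genotypes Cd74 stood beside H2-K1, whereas in WT it lay below the mean of H2-K1. Cd74 was at 11.3 ± 4.19 CPM per kb and H2-K1 at 10.9 ± 6.11 in APP/PS1. In APP/PS1/FTnKO they were at 11.3 ± 4.17 and 11.4 ± 4.13.

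Among WT mice the heavy chains varied more than the light chain, and for H2-D1 this rested mostly on mouse 18944. Across the 5 WT mice the coefficient of variation was 9.60% for B2m against 42.2% for H2-K1 and 37.6% for H2-D1. Without mouse 18944, left out after the data were seen, it was 11.1% for B2m, 33.5% for H2-K1 and 13.8% for H2-D1. In mouse 18944, a WT female, H2-D1 was 0.124 and H2-K1 0.151 of B2m by CPM, whereas in WT mouse 19053 these ratios were 0.464 and 0.486. The same mouse stood apart in other genes of the region, which were picked after their values were seen. It had 1 read each of the pseudogene H2-K2 and of H2-DMb1, a chain of the class II peptide editor, 0 reads of the class I relatives H2-Q6 and H2-Q7, and the lowest level of the ribosomal protein gene Rps18, at 31.1 CPM. At 0 reads a level of up to 3 reads per library cannot be told from absence.

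H2-Ea, the α partner of H2-Eb1, split the mice differently. Reads were 17, 11, 11, 10 and 9 in the WT mice. In APP/PS1 mice they were 0 in 16975, 3 in 19553, 5 in 19744 and from 11 to 16 in the others. In APP/PS1/FTnKO mice they were 0 in 16974 and 18973, 2 in 19394 and from 14 to 20 in the others. A count of 0 allows a level of up to 0.186, 0.179 and 0.171 CPM in mice 16975, 16974 and 18973. The annotation lists this gene as a polymorphic pseudogene. Neither comparison with WT called it (log2 fold change -0.55 with an edgeR FDR of 0.764 and -0.65 with 0.619), nor did APP/PS1/FTnKO against APP/PS1 (-0.10, edgeR FDR 0.972).

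The 4 mice with 0 to 2 reads of H2-Ea had high values elsewhere in the region. Rps18 was 171, 161, 130 and 152 CPM in mice 16975, 16974, 18973 and 19394, and at most 100.4 CPM in the others of the 17. H2-K2 was 4.53, 4.37, 2.85 and 4.08 CPM there and at most 1.91 in the others, and H2-DMb1 was 3.85, 4.73, 2.05 and 3.98 CPM against at most 1.66. Among the members, H2-D1 stood at 0.608, 0.631, 0.601 and 0.499 of B2m in these mice, all above the other 13, whose ratios ended at 0.464. The cut at 2 reads was set with these values in view. Mouse 19553 had 3 reads, no more than the limit given above for 0 reads, and did not share the high values. It had Rps18 at 83.5, H2-K2 at 1.61 and H2-DMb1 at 1.61 CPM, and H2-D1 at 0.361 of B2m. WT mouse 19622, held apart, had 25 reads of H2-Ea, H2-K2 at 4.53 CPM and H2-D1 at 0.77 of B2m, so that high H2-K2 and H2-D1 went with H2-Ea reads there. Mice of C57BL/6 origin carry a form of the MHC region that does not transcribe H2-Ea, line 85Dbo was made on a background with C3H ancestry, and reads were aligned to a C57BL/6J reference. The sources used here do not give the form each mouse carried, and its part in the results was not tested.

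**Figure D3:**
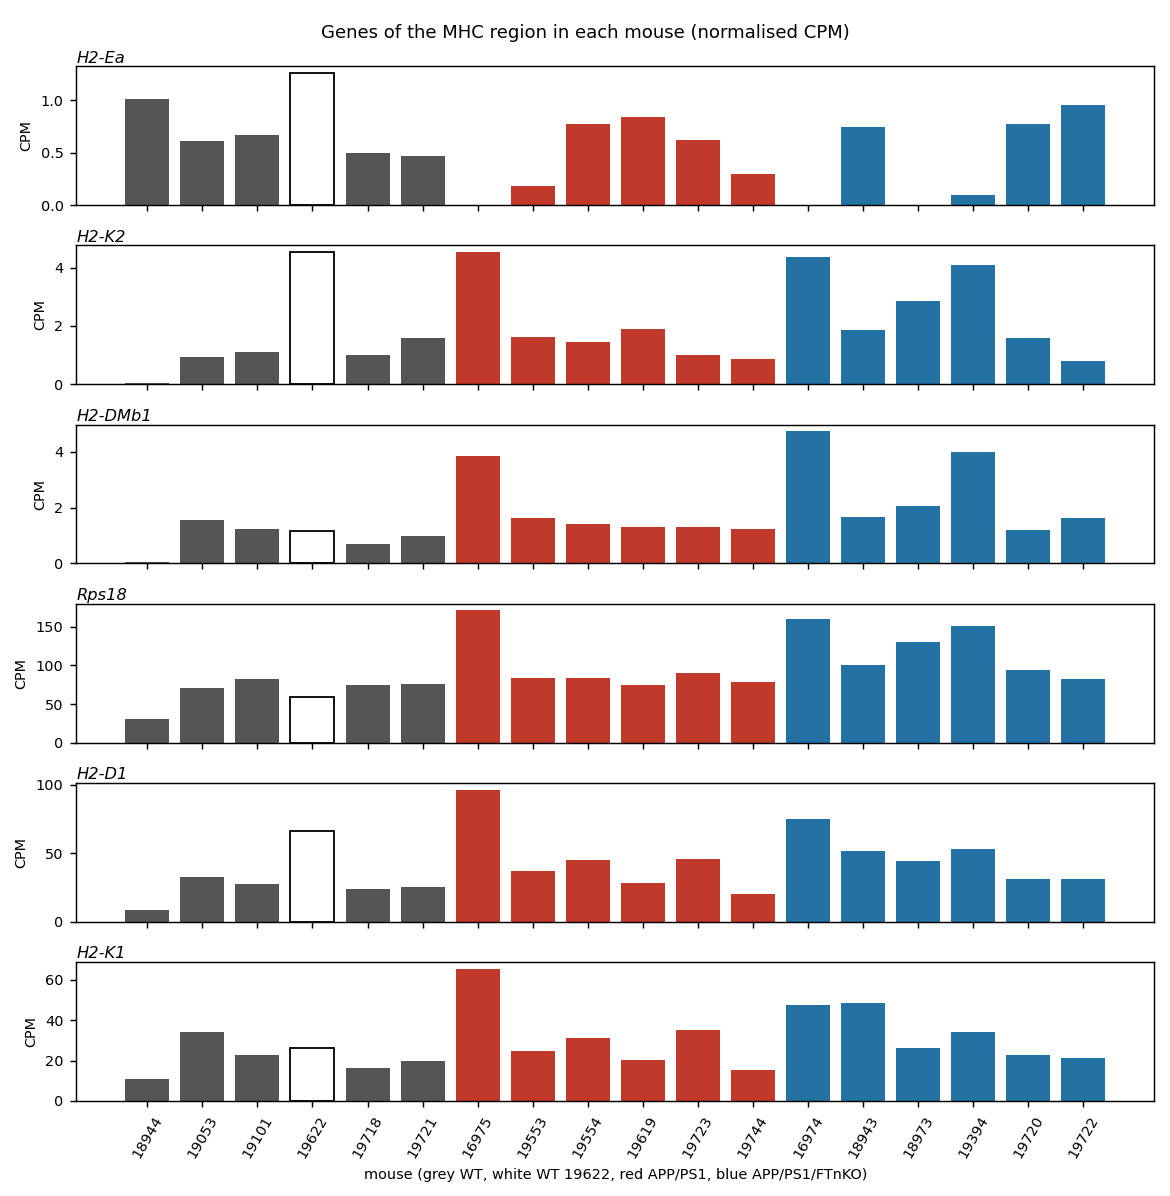
Normalised CPM (vertical axes from 0) of 6 genes of the MHC region in each of the 18 mice, grey for WT, white for WT mouse 19622, red for APP/PS1 and blue for APP/PS1/FTnKO. Mice 16975, 16974, 18973 and 19394 have 0 to 2 reads of H2-Ea and the highest Rps18 and H2-DMb1, and WT mouse 18944 has the lowest Rps18, H2-D1 and H2-K1.

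These 5 mice include the 2 with the highest H2-D1 of the 17 (16975 and 16974) and the one with the lowest H2-D1 and H2-K1 (18944), so that smaller heavy chain differences without them follow in part from which mice were left out. Without them, an alternative chosen after the data were seen, the log2 fold change of H2-K1 in APP/PS1 against WT went from 0.62 to -0.14 and that of H2-D1 from 0.97 to 0.14. In APP/PS1/FTnKO against WT, H2-K1 went from 0.68 to 0.11 and H2-D1 from 1.04 to 0.23. Cd74 stood at 1.78 (edgeR FDR 0.0106) and 1.93 (edgeR FDR 0.0148), as large as with all 17 mice and still called where 0.716% and 1.11% of all genes were. B2m, encoded outside the region, went from 0.65 to 0.39 in APP/PS1 against WT and from 0.50 to 0.39 in APP/PS1/FTnKO against WT. In the former Tap1 went from 0.44 to 0.26, Psmb8 from 0.39 to -0.024 and Psmb9 from 0.32 to 0.0035. In the latter Tap1 stayed at 0.59, Psmb8 went from 0.23 to 0.15 and Psmb9 from 0.34 to 0.24. H2-Ab1 was 1.12 and 1.36 higher and was not called (edgeR FDR 0.358 and 0.160), and H2-Eb1 in APP/PS1 against WT went from 0.37 to 0.085.

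RNA integrity also differed between the mice. RNA integrity numbers (RIN) were 8.5 to 8.8 for WT mice, 7.7 to 8.7 for the amyloid model and 7.6 to 8.7 for the knockout, and the lowest, 7.6 and 7.7, belonged to mice 16974 and 16975 with the highest H2-D1. With RIN in the model, the log2 fold changes in APP/PS1 against WT were -0.08 for H2-K1, 0.23 for H2-D1, 0.31 for B2m, 0.08 for Tap1, -0.03 for Psmb8 and -0.19 for Psmb9. Those of Cd74 (1.65, edgeR FDR 0.0173, 0.482% of all genes called) and H2-Ab1 (1.04, edgeR FDR 0.348) moved less, that of H2-Aa was 0.72, and that of H2-Eb1 went from 0.37 to 0.093. Against WT in the knockout, Cd74 (1.64) and H2-Ab1 (1.30) stayed called with RIN in the model, beside 2.23% of all genes. The class I values there were 0.29 for H2-K1, 0.64 for H2-D1, 0.31 for B2m, 0.37 for Tap1, -0.0155 for Psmb8 and 0.046 for Psmb9. Each was below its value without RIN. H2-Aa was at 1.065 and H2-Eb1 at 0.37. RIN and genotype are partly confounded in these mice and cannot be told apart fully.

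Within genotypes the class I members varied together from mouse to mouse, and so did the class II members, while the link between the classes was looser. These are descriptions over the deviations of log2 CPM from the genotype means in 17 mice, which share libraries. Pearson's r had a median of 0.743 over the 15 pairs of class I members (0.414 to 0.938) and 0.839 over the 6 class II pairs (0.726 to 0.890). Over the 24 pairs between the classes the median was 0.383 (0.0563 to 0.603). Of the genes tested, the one whose deviations were most like the mean of the class I members was Nlrc5, the transactivator of class I promoters (r = 0.957, Spearman's rho = 0.966). Without the 2 mice farthest from the median of Nlrc5, r was 0.930. The next outside the members were Irf7, an interferon regulatory factor (0.929), Syngr2 (0.918), Akt1 (0.913) and Havcr2 (0.912).

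Nlrc5 itself stood at 1.66, 2.0, 1.83, 1.45 and 1.40 CPM in WT, from 1.06 to 6.27 (median 2.68) in APP/PS1 and from 1.83 to 4.92 (median 2.31) in APP/PS1/FTnKO. Mouse 16975 had the highest value and mouse 19744 the lowest, as they had for H2-K1 among APP/PS1 mice. Its log2 fold changes were 0.94 (SE 0.37, edgeR FDR 0.269) against WT in APP/PS1 and 0.69 (SE 0.37, edgeR FDR 0.292) in APP/PS1/FTnKO. The likeness of Nlrc5 to the class II members was lower (r = 0.472). For those the most alike genes were Bicc1 (0.838), Gpr4 (0.835), Sema3b (0.804), Aebp1 (0.802) and Prdm6 (0.794). Ciita, the class II transactivator, had 0 to 16 reads per library and was too low to be tested.

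**Figure D4:**
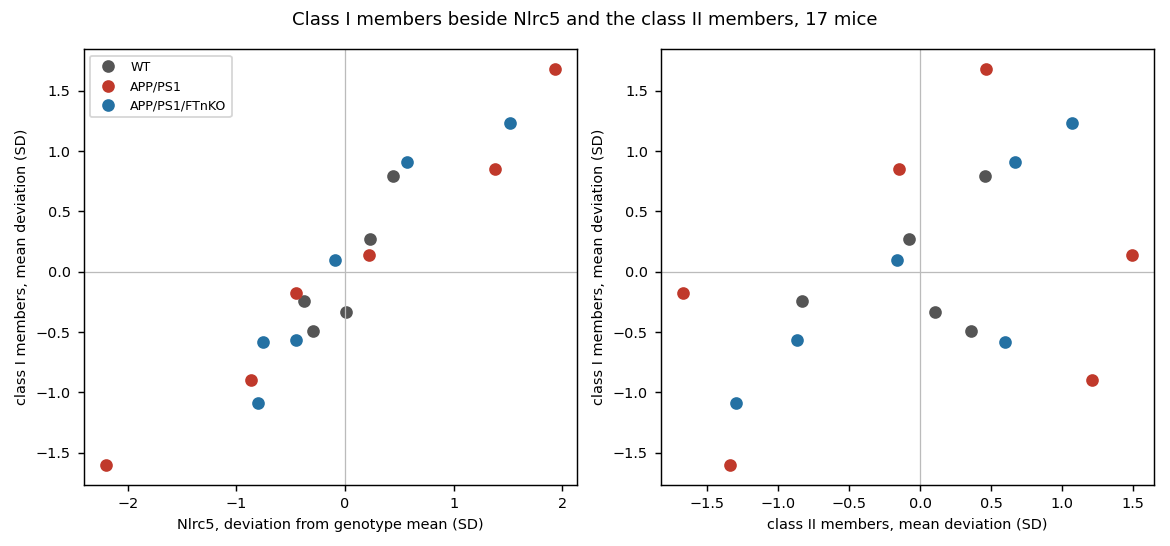
Mean deviation of the 6 class I members from their genotype means, in SD units (vertical axes), against the deviation of Nlrc5 (left) and of the 4 class II members (right), 1 point per mouse for 17 mice. The points follow a line in the left panel (r = 0.957) and scatter in the right.

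None of 11 tested partners in the class I pathway was called in any comparison (edgeR). Against WT, 10 of the 11 had fitted fold changes above 1 in the amyloid model (median log2 fold change 0.13), as did 49.41% of all genes. Between the transgenic genotypes 9 of the 11 lay below 1 (median -0.083), where 49.48% of all genes lay above 1. Among the 11 were Tap2, the partner of Tap1 in the peptide pump (log2 fold change 0.22, SE 0.15, edgeR FDR 0.552 in APP/PS1 against WT), Tapbp, which bridges it to class I (0.18, FDR 0.368), and Psmb10, the remaining immunoproteasome subunit (0.13, FDR 0.373). The constitutive counterparts Psmb5, Psmb6 and Psmb7 were not called either, with log2 fold changes from -0.28 to 0.07 in that comparison. Among 10 tested class I relatives, 2 were called, both in APP/PS1/FTnKO against WT. H2-T22, a ligand of γδ T cells, stood at 14.6, 15.9, 15.4, 12.04 and 13.3 CPM in WT, from 14.1 to 26.9 in APP/PS1 and from 20.9 to 32.4 in APP/PS1/FTnKO (0.81, SE 0.14, edgeR FDR 0.00618). H2-T23, which encodes Qa-1, stood at 9.82, 12.6, 10.8, 8.15 and 7.91 CPM in WT and from 14.4 to 24.9 in APP/PS1/FTnKO (0.93, SE 0.21, edgeR FDR 0.0210). For both genes every APP/PS1/FTnKO mouse lay above every one of the 5 WT mice, as for 2.75% of all genes, and 3.87% of all genes were called in this comparison. Against APP/PS1 the FDRs were 0.179 for H2-T22 (0.45, SE 0.13) and 0.458 for H2-T23 (0.39, SE 0.19).

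Of 12 tested partners in the class II pathway, 3 were called in each comparison with WT, where 1.50% (APP/PS1) and 3.87% (APP/PS1/FTnKO) of all genes were, and none between the transgenic genotypes. Ctss, the cathepsin that trims Cd74, stood at 60.3, 57.6, 71.0, 58.7 and 74.3 CPM in WT, from 99.5 to 220 in APP/PS1 and from 70.0 to 162 in APP/PS1/FTnKO. It was 2.597-fold higher in APP/PS1 than in WT (edgeR FDR 0.000803) and 2.02-fold higher in APP/PS1/FTnKO (edgeR FDR 0.00958). In APP/PS1/FTnKO mouse 18973 was the one inside the WT range. H2-Ob, a chain of the modulator H2-O, lay between 0.500 and 1.60 CPM in WT mice, 2.12 and 3.25 in the amyloid model and 0.741 and 2.87 with the knockout, with log2 fold changes against WT of 1.43 (SE 0.28, edgeR FDR 0.0108) and 1.03 (SE 0.28, edgeR FDR 0.0478). The legumain gene Lgmn was called in APP/PS1 against WT (0.29, SE 0.07, edgeR FDR 0.0343) and H2-DMb2, a chain of the peptide editor, in APP/PS1/FTnKO against WT (1.13, SE 0.29, edgeR FDR 0.0396), with 2 to 12 reads in WT mice. Over the 33 tested genes of the class I partner, class I relative and class II partner lists, calls with a mouse left out ran from 1 to 4 in APP/PS1 against WT, 2 to 8 in APP/PS1/FTnKO against WT and 0 to 1 between the transgenic genotypes. With RIN in the model Ctss alone of them stayed called in APP/PS1 against WT, and Ctss, H2-T22 and H2-T23 in APP/PS1/FTnKO against WT. With all 18 mice Lgmn was not called in the former, and H2-Ob and H2-DMb2 were not in the latter.

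Interferon genes were mostly not called, where 1.50% (APP/PS1) and 3.87% (APP/PS1/FTnKO) of all genes were against WT. Of 9 tested signalling genes 1 was called, Irf8, a factor that microglia also need for their identity, at a log2 fold change of 1.54 (SE 0.22, edgeR FDR 0.000732) in APP/PS1 and 1.22 (SE 0.22, edgeR FDR 0.00576) in APP/PS1/FTnKO against WT. None of the 12 interferon-stimulated genes was called in any comparison, with median log2 fold changes of 0.36 in APP/PS1 and 0.32 in APP/PS1/FTnKO against WT. Of 36 genes of the MHC region without a presentation role, Rgl2 was called in both comparisons with WT (0.44 and 0.46, edgeR FDR 0.0213 and 0.0132) and Rps18 in APP/PS1/FTnKO (0.89, edgeR FDR 0.0423), counts close to the share over all genes, and the median of the 36 was 0.013 in APP/PS1 and -0.0054 in APP/PS1/FTnKO against WT.

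Some markers of microglia were called against WT, as Cd74 was. The 10 general microglial markers summed to between 384 and 448 CPM in WT mice, 498 and 805 in the amyloid model and 383 and 614 with the knockout, and 5 of 10 were called in APP/PS1 against WT and 2 of 10 in APP/PS1/FTnKO against WT, beside 1.50% and 3.87% of all genes. The 10 genes of plaque-associated microglia summed to between 130 and 153 CPM in WT mice, 221 and 489 in the amyloid model and 180 and 401 with the knockout, and 9 of 10 were called in both comparisons with WT. Their median log2 fold change, 2.32 in APP/PS1, was above that of Cd74. Between the transgenic genotypes 10 of 10 general microglial markers and 9 of 10 plaque-associated genes had lower fitted values with the knockout (median log2 difference -0.26 for each list), none called, while Cd74 was at -0.04. None of the 8 markers of border macrophages was called, their sum running from 7.80 to 10.6 CPM in WT and 7.11 to 12.1 in APP/PS1. Choroid plexus markers reached 461.5 CPM in APP/PS1 mouse 19554, which had 27.0 CPM of Cd74, and at most 76.3 in the other 16 mice, and leaving out any one mouse left Cd74 at 1.53 or more on the log2 scale in APP/PS1 against WT. Of the dendritic cell and T cell lists 4 of 8 and 4 of 10 genes were high enough to test, none called, and of the natural killer cell and neutrophil lists none was, with Ly6g at 0 reads in every mouse of the 17. Of 6 B cell genes the 1 tested, Ighm, was called in both comparisons with WT (0.48 and 0.59, edgeR FDR 0.0430 and 0.00958). None of the 5 blood markers was called. They summed to 1028 CPM in WT mouse 19101, which had the highest B2m of the 5 WT mice. Their sum was 447 CPM in APP/PS1/FTnKO mouse 18973, which had the lowest B2m of its group, and at most 167 in the others of the 17. The 6 astrocyte markers, which summed to between 1765 and 1908 CPM in WT mice, 2067 and 3619 in the amyloid model and 1916 and 3210 with the knockout, had higher fitted values in both comparisons with WT, and Gfap was called in both (6.87- and 5.79-fold, edgeR FDR 0.000323 and 0.000980). The 9 neuronal markers summed to between 7734 and 9889, 7258 and 9681, and 6533 and 8034 CPM in the same order, 8 of them had lower fitted values in both, and Slc17a7 was called in APP/PS1/FTnKO against WT (-0.46, SE 0.12, edgeR FDR 0.0396). Of all genes, 49.41% in APP/PS1 and 51.3% in APP/PS1/FTnKO had higher fitted values against WT, and 49.48% did between the transgenic genotypes. The part of these cell types in the results was not tested, and in bulk tissue more cells of a type cannot be told apart from more RNA per cell.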

How the data were processed

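Frontal cortex mRNA of 18 mice was sequenced by the authors from stranded TruSeq libraries on a NovaSeq instrument. Per the labels, reads were trimmed with Trimmomatic 0.33, checked with FastQC 0.11.7 and aligned to GRCm38 with HISAT2 2.1.0, and the deposited raw counts per gene were made with featureCounts. The sources used here do not state its strand and multimapping settings. Of the 18 columns of mouse counts, 0 were left unused.

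The quasi-likelihood test of edgeR 4.0.16 (R 4.3.3) was run on the counts with TMM scaling and with genotype and sex as terms, the 3 genotypes in 1 fit. Genes passed filterByExpr at a minimum count of 10, and p-values were adjusted by Benjamini-Hochberg over 17414 genes. WT mouse 19622 was held apart. Alternatives were all 18 mice, DESeq2 1.42.0, limma-voom (limma 3.58.1), RLE scaling, no filter, a minimum count of 50, no sex term, RIN as a covariate, a fit on 2 genotypes alone, and leaving out every mouse in turn. After the data were seen, a fit without 5 mice with unusual counts in the MHC region was added. The log2 CPM of the likeness measure used a prior count of 2. The code was tested on simulated data. The depth limits the precision of genes with few reads, such as H2-Ab1, Psmb9 and H2-Ea. Within a genotype, pairs of libraries differed by a chi-square per gene of 6.23 or more, so none was counted as a duplicate. The mice are separate animals.

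The members and lists were chosen with earlier results of these data known. Named beyond the 10 members were called genes of the presentation, proteasome and interferon lists (at most 8 per comparison by p), H2-Ea, Ciita and Nlrc5, the 5 genes most alike to each class, and the checks of the labels. Other genes named, such as Tap2, Tapbp, Psmb10, the constitutive proteasome subunits, further genes of the MHC region and single marker genes, were picked with their values in view. Promoter windows came from RefSeq (8 of the 10 members matched, with no entry for H2-Ab1 and Cd74), and 99.53% of the gene identifiers matched the GENCODE M21 annotation.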

Additional observations from a re-analysis of the deposited data

Results flagged for a closer look

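In APP/PS1 mice H2-D1 reached 96.5 CPM in mouse 16975, and the gap to the next mouse was 0.667 of the whole range of the group, beyond what is usual for 6 values. This was 1 of 30 groups of 5 or 6 values examined, and chance sets apart about 1 in 20. The same mouse had no reads of H2-Ea and the highest H2-K1 and B2m of all mice.

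WT mouse 19622, which entered no test, lay above all 5 other WT mice for 6 of the 10 genes. It had 86.3 CPM of B2m, 66.4 of H2-D1, 4.38 of H2-Aa, 2.47 of H2-Ab1, 3.07 of H2-Eb1 and 12.03 of Cd74. Its marker sums of neurons, oligodendrocytes, astrocytes, microglia and choroid plexus also lay outside the range of the other WT mice.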

How the results depend on the processing

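Cd74 stayed called in both comparisons with WT under every alternative that was run, with log2 fold changes from 1.53 to 1.87 without the knockout and 1.52 to 1.93 with it. Called members in APP/PS1 against WT numbered 1, and 3 with DESeq2, 4 with no filter, 2 with no sex term and 1 to 3 when a mouse was left out. In APP/PS1/FTnKO against WT they numbered 2, and 1 with all 18 mice, 4 with DESeq2, 5 with no filter, 4 with only the genotypes compared, 1 without the 5 mice apart in the MHC region and 1 to 3 when a mouse was left out. Between the transgenic genotypes they numbered 0 throughout. Directions turned only for uncalled members. In APP/PS1 against WT these were H2-K1 (-0.083 with RIN, -0.14 without the 5 mice), Psmb8 (-0.027 with RIN, -0.024 without the 5 mice) and Psmb9 (-0.19 with RIN), and in APP/PS1/FTnKO against WT Psmb8 (-0.016 with RIN). In APP/PS1/FTnKO against APP/PS1 they were B2m (0.0053 with RIN), Psmb8 (0.012 with RIN, 0.17 without the 5 mice) and Cd74 (0.15 without the 5 mice). With a mouse left out, that comparison ran from -0.25 to 0.022 for B2m, -0.094 to 0.46 for H2-K1, -0.10 to 0.45 for H2-D1, -0.39 to 0.062 for Psmb8, -0.14 to 0.31 for Psmb9, -0.0094 to 0.40 for H2-Eb1 and -0.16 to 0.17 for Cd74. The cause was not tested. With RIN in the model 0.482% of all genes were called in APP/PS1 against WT, and 1.50% without it. No paired analysis was run. The labels number individual mice, no number is shared between genotypes, and the sources used here do not say which mice shared a litter.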
